A study of Mus musculus with 14 samples.

Results

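Integrins are receptors of one alpha and one beta subunit that join the matrix outside a cell to the actin cytoskeleton inside it. The alpha subunit largely sets which matrix protein is bound, and the beta subunit carries the tail to which talin, kindlin and their partners attach. In bone, CD61, the integrin beta 3 subunit encoded by Itgb3, pairs with alpha v to bind proteins with an RGD motif (arginine, glycine, aspartate) such as osteopontin, bone sialoprotein and fibronectin, and integrins of this kind have been placed along osteocyte dendrites, where they take part in sensing load. Here 10 integrin subunit genes were followed, chosen by name, with earlier results of these data known. They were Itgb3, its partner Itgav, the further beta subunits Itgb1 and Itgb5, and the alpha subunits Itga5, Itga4, Itga1, Itga11, Itga3 and Itga6, most of which pair with beta 1. All 10 were listed among the 39179 genes of the time course and the 35886 genes of the sort, and they are part of the 27 integrin subunit genes checked.

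The cells were Ocy454, a single mouse osteocyte-like line that divides while a thermosensitive large T antigen is active and differentiates when moved to 37 °C, so each group below carries that antigen. In the time course, RNA was taken in biologic duplicate (8 libraries) on days 1, 7, 10 and 14 after the shift. In the sort, cells kept for 17 days at 37 °C were labelled for surface CD61, and the 10% of live cells with the lowest signal (CD61low) and the 10% with the highest signal (CD61high) were collected from 3 independent groups of cells (6 libraries). The study gives this time differently in separate places, and the value used here is that of the labels and methods. No other drug or genetic change is named for either set of libraries. The time course held 27518605 to 34311238 reads on genes per library and the sort 18815602 to 19220064 estimated counts. In bulk RNA, fewer cells that express a gene and less RNA per cell cannot be told apart.

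Itgb3 rose late in differentiation and was higher in the cells sorted for its product. Itgav, the gene of its partner, overlapped between the sorted groups (adjusted p = 0.17 in edgeR) and was slightly lower on day 14 than on day 1. Itgb1 was higher in CD61high cells and later in culture. Itgb5 was higher in CD61high cells too, but lower later in culture. The alpha subunits moved apart. Itga1 was lower both in CD61high cells and with time. Itga5 fell with time and was slightly lower in CD61high cells. Itga11 and Itga6 went one way in the sort and the other way in the time course.

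Itgb3 lies on the plus strand of chromosome 11 (chr11:104498826-104561302, GRCm39). Its transcript Itgb3-201 has 15 exons. The study's 3 CRISPR interference guides against Itgb3 all lie in exon 1 around the first coding base at 104498915, and they are shown because they mark the start of the transcript whose level is reported here. Each line gives the genomic site on the plus strand, 5′ to 3′, with the adjoining PAM in capitals.
Itgb3 sgRNA 1: gcagtggccgggacaactctGGG
Itgb3 sgRNA 2: cggacaggatgcgagcgcagTGG
Itgb3 sgRNA 3: cgcgcgcgcggcgtgaagggCGG
The 20 bases next to each PAM are at chr11:104498923-104498942 (coding sequence), chr11:104498907-104498926 (from the 5′ UTR into the coding sequence) and chr11:104498884-104498903 (5′ UTR), starting 97, 81 and 58 bases after the gene start. Guide 1 matches its site in full. Guides 2 and 3 each differ from the genome by G1C, counted from the guide's 5′ end.

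The study's 2 shRNAs match the coding part of the transcript further downstream, and they are shown because they fall in exons shared by both annotated Itgb3 transcripts.
Itgb3 shRNA 1: cggatgccaagacccatattg
Itgb3 shRNA 2: gacacggtgagctttagtatc
The first lies in exon 6 (chr11:104528698-104528718). The second spans the junction of exons 9 and 10, with its ends at 104533139 and 104534416. All 21 bases of both lie in exons of Itgb3-202 as well, a transcript with no annotated coding sequence, whereas no base of the 3 guide sites does. The knockdown and screen libraries themselves were not analysed here.

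Itgb3 encodes the protein by which the cells were collected, so its level tests whether the sorted libraries carry the right labels. In CD61low libraries 1, 2 and 3 it measured 5.31, 5.54 and 6.10 CPM (counts scaled to a common library total) after TMM scaling, a correction for library composition, and in CD61high libraries 130.1, 100.1 and 103.6. The 2 groups did not overlap, and within CD61high cells library 1 was the highest. The means were 5.65 ± 0.408 and 111 ± 16.4 (SD, n = 3), a 19.7-fold difference and a Log2FC of 4.30 (SE 0.13, adjusted p = 3.3e-08, edgeR with the Benjamini-Hochberg method). It ranked 1 of the 12077 genes tested by Log2FC, but Dmp1, at 4.29 (SE 0.34), came next by less than either SE and was above it in the fits without CD61low replicate 1 or 3 or CD61high replicate 2 or 3. As the sort used its product, this is a check of the labels and not a finding.

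In the time course Itgb3 stood at 10.3 and 10.9 CPM on day 1, 13.9 and 11.0 on day 7, 19.6 and 19.9 on day 10, and 56.9 and 57.6 on day 14. Days 1 and 7 were not separated beyond the spread of the day 7 pair, day 10 was above both, and day 14 was above all other days. Against day 1 the Log2FC on the log2(CPM + 1) scale was 0.20 on day 7 (SE 0.08, adjusted p = 0.039 in limma), 0.84 on day 10 (adjusted p = 1.9e-09) and 2.33 on day 14 (adjusted p = 8.5e-19). With single libraries left out, the day 7 value ranged from 0.044 to 0.36. A gene was called changed where its adjusted p was below 0.01 and its Log2FC beyond 1 in either direction, so Itgb3 was called on day 14 only. Most of the increase fell between days 10 and 14, with a Log2FC of 1.49 (SE 0.08, adjusted p = 6.2e-14). The study picked Itgb3 as a marker partly because it rose in these libraries, so its direction here is not independent evidence.

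**Figure D1:**
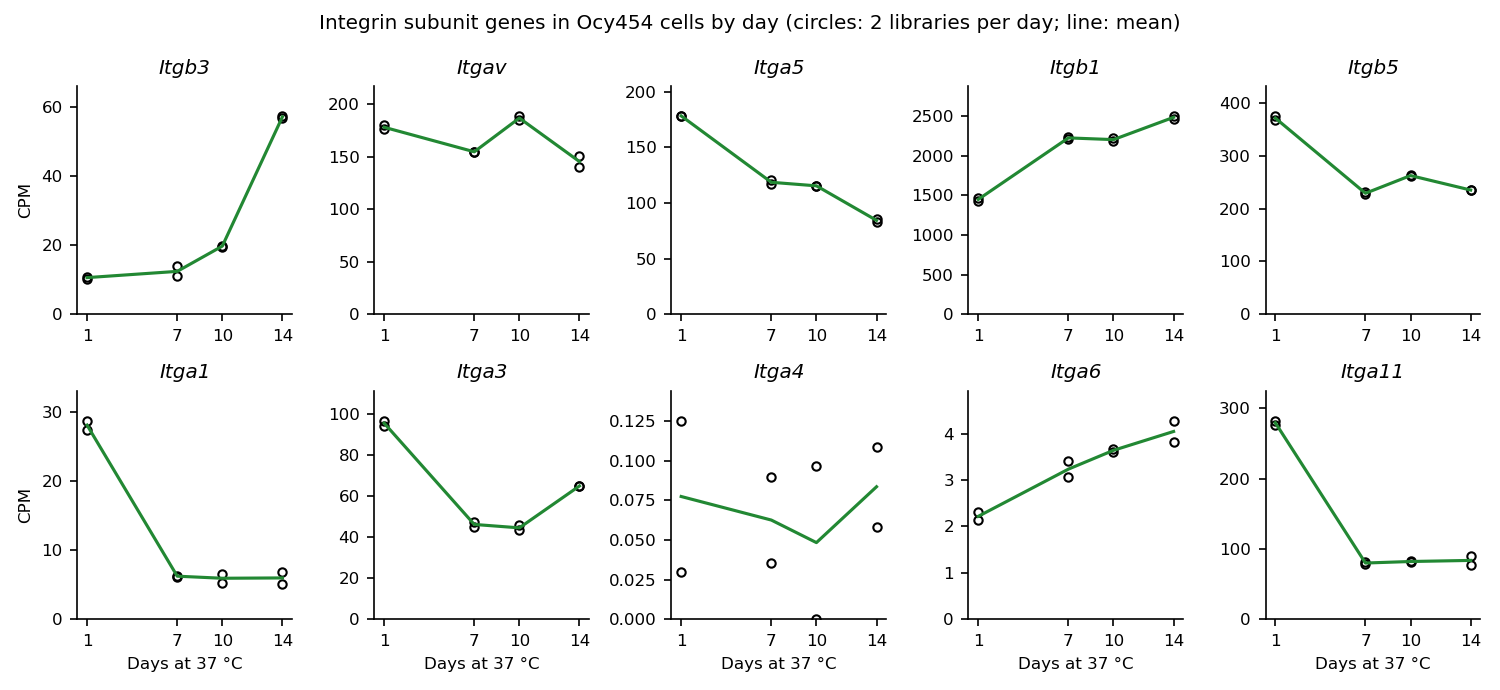
CPM (y axis, from 0, own scale per gene) of the 10 integrin subunit genes against days at 37 °C (x axis). Circles are the 2 libraries of each day and the line joins their means. Itgb3 climbs from 10.6 CPM on day 1 to 57.3 on day 14, Itga1 and Itga11 drop by day 7 and stay low, and Itga4 never exceeds 0.125 CPM.

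Of the 10 genes, 9 passed the filter on low counts in each experiment. In the sort 3 of these 9 were called higher in CD61high cells (Itgb3, Itgb1 and Itga11) and 2 lower (Itga1 and Itga6). Of all genes tested, 4.84% were called higher and 4.37% lower. The sort itself set the call of Itgb3, which is not a finding. Every count and median given for the 9 genes in the sort includes it. On day 7, 0 were called higher and 3 lower (Itga1, Itga3 and Itga11), against 4.49% and 4.62% of all genes. limma gave 3 of the 9 a positive Log2FC on day 7, each with an unadjusted p under 0.05, but none reached a Log2FC of 1, and edgeR on the recovered reads called 0 higher too. On day 10 the same 3 genes were called lower, against 4.42% of all genes, and again limma and edgeR called 0 higher, against 6.06%, with 3 higher at an unadjusted p under 0.05. On day 14, 1 was called higher (Itgb3) and 3 lower (Itga5, Itga1 and Itga11), against 7.51% and 5.9%. Between days 10 and 14, Itgb3 was called higher, where 2.09% of all genes were, and 0 of the 9 were called lower by limma or by edgeR on the recovered reads, where 0.872% were, with 3 lower at an unadjusted p under 0.05. The 9 genes had a median Log2FC of 0.23 in the sort and -0.55 on day 14 against day 1, where the median of all genes was 0.0035 and -0.03. With library size alone the sort gave 2 higher and 2 lower, and the median of the 9 turned to -0.074, where that of all genes was -0.29.

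The TMM factors separated the sorted groups, at 1.10 to 1.13 in CD61low and 0.895 to 0.909 in CD61high libraries. With library size alone the median Log2FC of all genes moved to -0.29, and the split of calls went from 585 higher and 528 lower to 316 higher and 963 lower. The latter are 2.62% and 7.995% of all genes, which apply to every count given here with library size alone. Changes in the sort are therefore relative to the TMM scaling.

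Itgav encodes alpha v, the partner of beta 3, beta 5, beta 6 and beta 8 and a possible partner of beta 1 (chr2:83554403-83637260, plus strand). It measured 88.8, 96.8 and 119 TMM-normalized CPM in CD61low and 137, 101 and 119 in CD61high libraries. The groups overlapped, with a Log2FC of 0.23 (SE 0.13, adjusted p = 0.17 in edgeR). Library size alone gave -0.074, and leaving out single libraries gave Itgav 0.11 to 0.34. Over the time course it took 180 and 176 CPM on day 1, 155 and 155 on day 7, 185 and 189 on day 10, and 151 and 140 on day 14. Days 1 and 10 were the high points and did not differ at the threshold (Log2FC 0.07, adjusted p = 0.13 in limma). Day 14 was below day 1 by a Log2FC of -0.29 (SE 0.04, adjusted p = 3.2e-07) and below day 10 by -0.36 (adjusted p = 2.0e-08). Neither difference reached the fold threshold.

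Itgb1 encodes beta 1, the shared partner of most alpha subunits (chr8:129411876-129460618, plus strand), and was the most abundant of the 10 genes in every group. In the sort it measured 1067, 1064 and 1182 TMM-normalized CPM in CD61low and 2473, 2280 and 2378 in CD61high libraries, with no overlap. The Log2FC was 1.11 (SE 0.07, adjusted p = 1.5e-06 in edgeR), or 0.81 with library size alone, which is under the fold threshold although its adjusted p was 5.1e-06. Over the days it rose from 1429 and 1465 CPM on day 1 to 2234 and 2211 on day 7, 2216 and 2186 on day 10, and 2502 and 2462 on day 14. Days 7 and 10 overlapped, and day 14 was the highest. Its Log2FC of 0.78 on day 14 (SE 0.04, adjusted p = 1.5e-15 in limma) did not reach 1.

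Itgb5 encodes beta 5, which also pairs with alpha v and binds vitronectin (chr16:33649988-33771137, plus strand). It took 252, 237 and 222 TMM-normalized CPM in CD61low and 347, 336 and 316 in CD61high libraries, again without overlap, and its Log2FC of 0.49 had an adjusted p of 3.3e-04 in edgeR, or 0.19 with an adjusted p of 0.049 with library size alone. With time it went the other way, from 376 and 367 CPM on day 1 to 231 and 227 on day 7, 262 and 263 on day 10, and 235 and 236 on day 14. Days 7 and 14 were the lowest, with means of 229 and 235 CPM. The Log2FC on day 14 was -0.66 (SE 0.04, adjusted p = 3.6e-15 in limma). In neither experiment did Itgb5 pass the fold threshold.

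**Figure D2:**
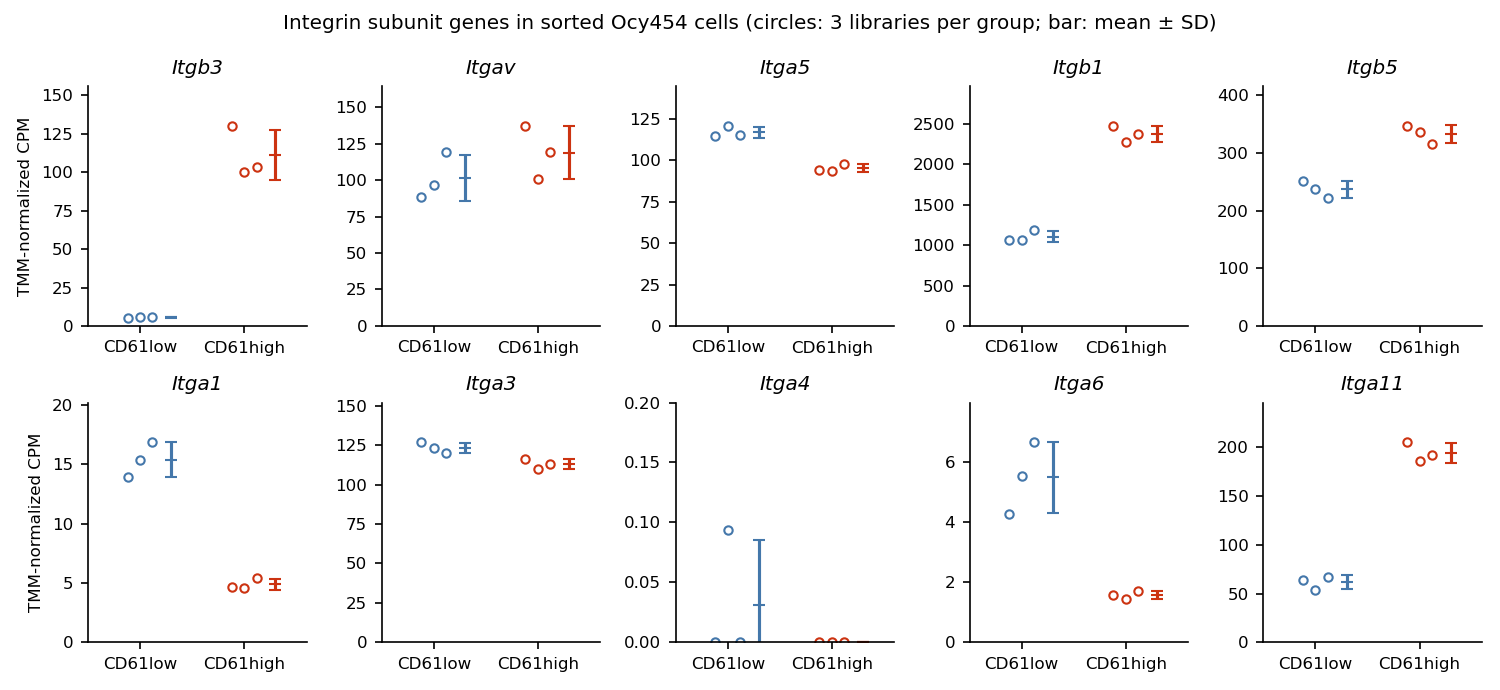
TMM-normalized CPM (y axis, from 0, own scale per gene) of the 10 genes in CD61low and CD61high cells (x axis). Circles are the 3 libraries of each group and the bar is the mean ± SD. Itgb3, Itgb1 and Itga11 lie higher in CD61high cells, Itga1 and Itga6 lower, and the 2 groups overlap for Itgav.

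Among the alpha subunits that join beta 1, alpha 5 makes the classical fibronectin receptor. Its gene Itga5 (chr15:103252713-103275270, minus strand) measured 178 CPM in both day 1 libraries, 117 and 120 on day 7, 115 and 116 on day 10, and 82.9 and 85.9 on day 14. It thus fell in steps, with days 7 and 10 close together, and reached a Log2FC of -1.07 on day 14 (SE 0.04, adjusted p = 1.3e-18 in limma). In the sort it measured 115, 121 and 116 TMM-normalized CPM in CD61low and 94.5, 93.4 and 98.2 in CD61high libraries. The groups did not overlap, but the Log2FC of -0.30 (SE 0.07, adjusted p = 3.7e-03 in edgeR) was well inside the fold threshold, as was the -0.60 with library size alone.

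Alpha 4, which binds fibronectin at a site without RGD and the adhesion molecule VCAM-1, was hardly measured. Itga4 (chr2:79085660-79163467, plus strand) had 0 to 4 reads per library in the time course, at most 0.125 CPM, and 0 counts in 5 of the 6 sorted libraries, with 2 counts in CD61low library 2. A count of 0 still allows up to 3 counts, or 0.144 to 0.146 TMM-normalized CPM in the CD61low libraries at 0 and 0.173 to 0.176 in the CD61high libraries, and this limit holds for counting error alone. The gene was not tested.

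Alpha 1 and alpha 11 bind collagen. Itga1 (chr13:115089632-115238677, minus strand) measured 27.4 and 28.7 CPM on day 1, then 6.12 and 6.30 on day 7, 6.53 and 5.29 on day 10, and 6.79 and 5.12 on day 14. The drop was complete by day 7, and the last 3 days overlapped. Its Log2FC was -2.01 on day 7, -2.08 on day 10 and -2.07 on day 14 (SE 0.11 each, with an adjusted p of 4.9e-15 in limma on day 14). It was also lower in CD61high cells, at 4.69, 4.55 and 5.41 TMM-normalized CPM against 13.9, 15.4 and 16.8 in CD61low cells. That Log2FC was -1.65 (SE 0.14, adjusted p = 6.2e-06 in edgeR). Its exons share 2180 bases with Mocs2 on the opposite strand and 685 bases with Gm49395 on the same strand, so reads there may have been split between genes.

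Itga11, whose product joins beta 1 as a receptor for fibrillar collagen (chr9:62585108-62691617, plus strand), fell with time and was higher in CD61high cells. It measured 277 and 283 CPM on day 1, 81.2 and 78.5 on day 7, 83.3 and 80.7 on day 10, and 90.0 and 77.2 on day 14. As for Itga1, days 7, 10 and 14 overlapped. The Log2FC on day 14 was -1.73 (SE 0.05, adjusted p = 8.1e-21 in limma). In the sort the CD61low libraries stood at 64.4, 53.4 and 66.7 TMM-normalized CPM and the CD61high libraries at 205, 185 and 192, with no overlap and a Log2FC of 1.66 (SE 0.09, adjusted p = 5.7e-07 in edgeR). Both calls held under every alternative tried.

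Alpha 3 and alpha 6 bind laminins. Itga3 (chr11:94935296-94967682, minus strand) dipped in the middle of the time course, from 94.4 and 96.9 CPM on day 1 to 44.8 and 47.6 on day 7 and 43.3 and 45.7 on day 10, then returned part of the way to 64.8 and 65.1 on day 14. Days 7 and 10 overlapped. The Log2FC was -1.03 on day 7 (SE 0.05, adjusted p = 5.0e-16 in limma), close enough to the fold threshold that it was -0.99 with TMM scaling of the CPM or without day 7 replicate 1, and -1.09 on day 10. Between days 10 and 14 it was 0.54 (adjusted p = 6.9e-10). In the sort Itga3 took 127, 123 and 120 TMM-normalized CPM in CD61low and 116, 110 and 113 in CD61high libraries, a Log2FC of -0.12 (SE 0.07, adjusted p = 0.14 in edgeR), or -0.43 with library size alone (adjusted p = 2.7e-04).

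Itga6 (chr2:71575960-71689757, plus strand) was low, at 2.30 and 2.13 CPM on day 1, 3.06 and 3.41 on day 7, 3.61 and 3.67 on day 10, and 4.28 and 3.82 on day 14. It was lowest on day 1, and the Log2FC of 0.65 on day 14 (SE 0.12, adjusted p = 3.5e-05 in limma) stayed under the fold threshold. In CD61high cells it was lower, at 1.58, 1.44 and 1.71 TMM-normalized CPM against 4.26, 5.54 and 6.64 in CD61low cells. That Log2FC was -1.79 (SE 0.23, adjusted p = 1.3e-04 in edgeR).

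**Figure D3:**
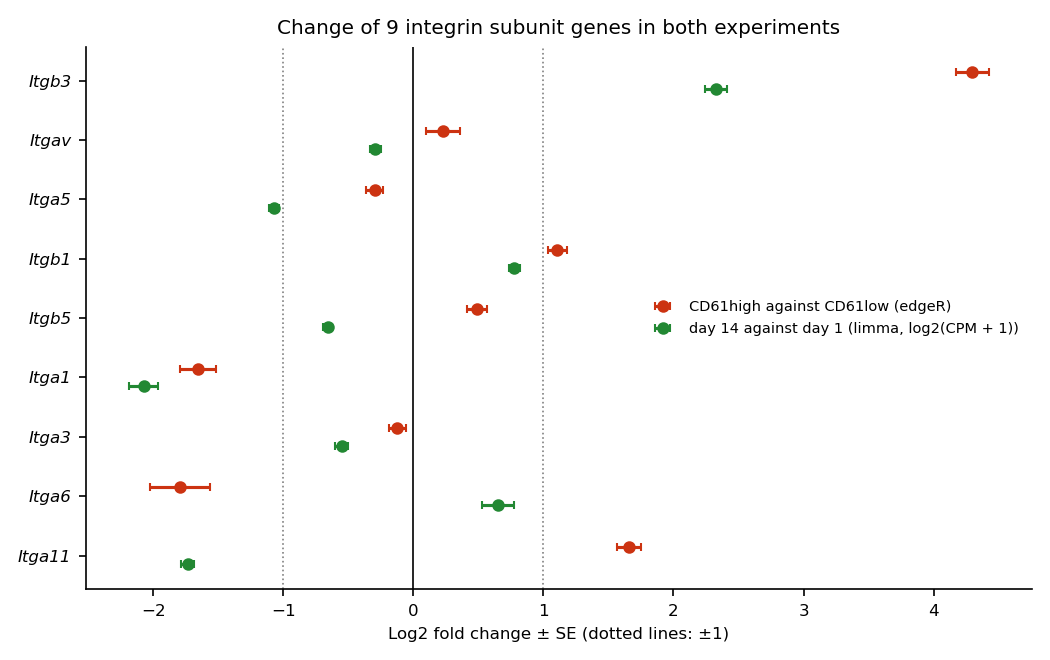
Log2 fold change ± SE (x axis) of the 9 genes tested (y axis) in CD61high against CD61low cells (red, edgeR) and on day 14 against day 1 (green, limma on log2(CPM + 1)), with dotted lines at the fold threshold of 1 in either direction. Itgb3, Itgb1, Itga1, Itga5 and Itga3 lie on the same side of 0 in both experiments, while Itga11 sits at 1.66 in the sort and -1.73 with time.

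The sort and the time course share no library, and their values stand side by side without a test of the difference. Of the 9 genes, Itgb3 and Itgb1 had a positive Log2FC in both and Itga1, Itga5 and Itga3 a negative one. Itgb5, Itgav, Itga11 and Itga6 differed in sign, of which Itga11 alone was called in both. The sign of Itgav in the sort depended on the scaling, and with library size alone it was negative too (-0.074).

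Levels of different genes were compared per length. In the sort this was the TPM summed over each gene's transcripts, and in the time course the CPM per kilobase of merged exons (annotation GENCODE M39). TPM carries no TMM scaling, so the sorted groups compare differently by TPM than above. Itgav, for example, averaged 102 TMM-normalized CPM in CD61low and 119 in CD61high cells, but was lower in CD61high cells by TPM. By TPM, CD61low cells held 564 ± 48.1 of Itgb1, 143 ± 7.83 of Itgb5, 55.0 ± 0.464 of Itga5, 51.2 ± 1.00 of Itga3, 39.97 ± 4.54 of Itgav and 23.3 ± 2.91 of Itga11 (SD, n = 3). Below these, among the 10 genes of this report, came Itga6, Itga1 and Itgb3 at 3.38, 2.83 and 2.01 TPM. Among the same 10 genes, Itgb1 (974 ± 80.8) and Itgb5 (169 ± 10.3) again led in CD61high cells, followed by Itga11 at 59.6 ± 5.14 TPM. Itga3 (37.8 ± 3.02), Itgav (35.9 ± 7.66), Itga5 (35.5 ± 2.78) and Itgb3 (31.5 ± 5.83) came next and did not differ beyond their spread. Itgb3 thus moved from below Itga1 to the level of Itgav.

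Set against the beta genes that can pair with alpha v (Itgb1, Itgb3, Itgb5, Itgb6 and Itgb8), Itgb3 remained a small part in every library. It made up 0.278%, 0.280% and 0.290% of their summed TPM in CD61low and 2.97%, 2.45% and 2.57% in CD61high libraries. In the time course its share of the summed CPM per kilobase was 0.529% and 0.553% on day 1, 0.513% and 0.410% on day 7, 0.718% and 0.739% on day 10, and 1.87% and 1.91% on day 14. On day 14 Itgb1 held 90.8% and Itgb5 7.28% on average. The Itgb3 level per Itgav level, which compares the pair of genes that make the alpha v beta 3 receptor, was 0.0515, 0.0510 and 0.0486 by TPM in CD61low and 0.871, 0.951 and 0.826 in CD61high libraries. On the time-course scale its mean went from 0.111 on day 1 to 0.150 on day 7, 0.197 on day 10 and 0.735 on day 14. The gene lengths that the authors list would place the day 14 mean at 0.571, with the same order of days.

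**Figure D4:**
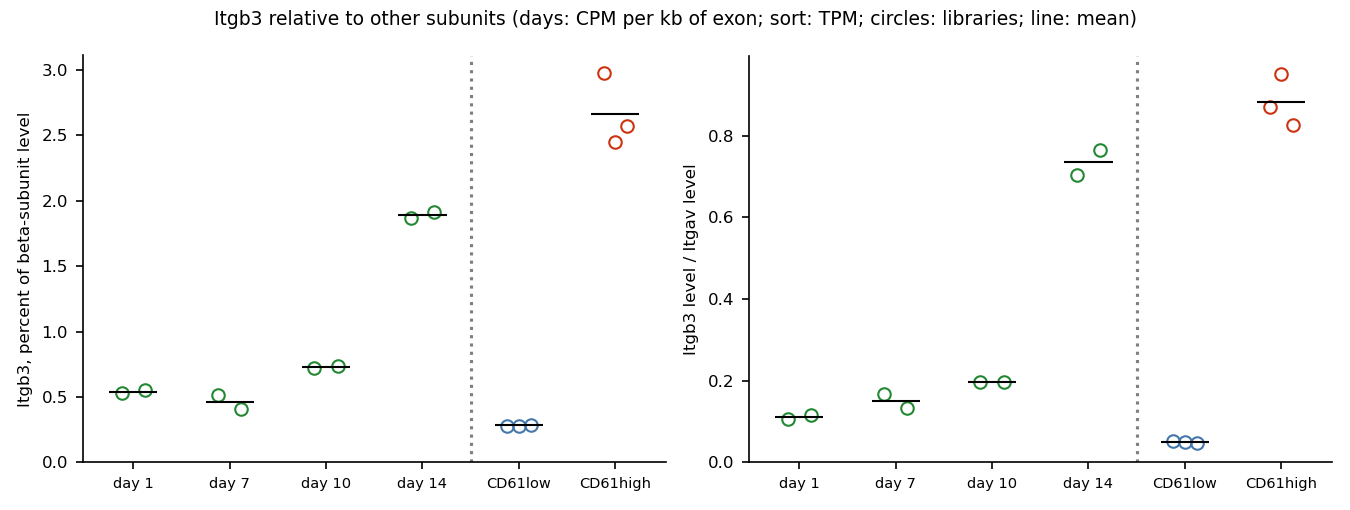
Itgb3 as a percent of the summed level of Itgb1, Itgb3, Itgb5, Itgb6 and Itgb8 (left y axis) and Itgb3 level divided by Itgav level (right y axis) in each group (x axis), from CPM per kilobase for the days and TPM for the sort, which are separate scales. Circles are libraries and lines are means. Both measures are highest on day 14 within the time course and in CD61high cells within the sort, where the share is 2.66% on average.

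The alpha genes that can pair with beta 1 were summed in the same way over 12 genes. Their total, without TMM scaling, was 263 ± 20.03 TPM in CD61low and 355 ± 34.9 TPM in CD61high cells (SD, n = 3). Over the days it went the other way, at 128 ± 0.962 CPM per kilobase on day 1, 108 ± 0.867 on day 7, 117 ± 2.92 on day 10 and 90.2 ± 6.42 on day 14 (SD, n = 2). The collagen-binding genes among them (Itga1, Itga2, Itga10 and Itga11) made up 39.99% ± 2.72 of that total in CD61low and 67.2% ± 0.438 in CD61high cells. Itga10, a further collagen receptor subunit, held the largest part, at 79.5 ± 12.5 and 178 ± 17.2 TPM. Itga2 was at 0 in all sorted libraries. In the time course the collagen-binding share of the CPM per kilobase was 47.5% ± 0.418 on day 1, 57.2% ± 0.178 on day 7, 59.3% ± 0.447 on day 10 and 53.3% ± 3.36 on day 14 (SD, n = 2). Within it, Itga11 held 35.5% of the alpha total on day 1 and 15.01% on day 14, while Itga10 held 11.0% and 38.0%.

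**Figure D5:**
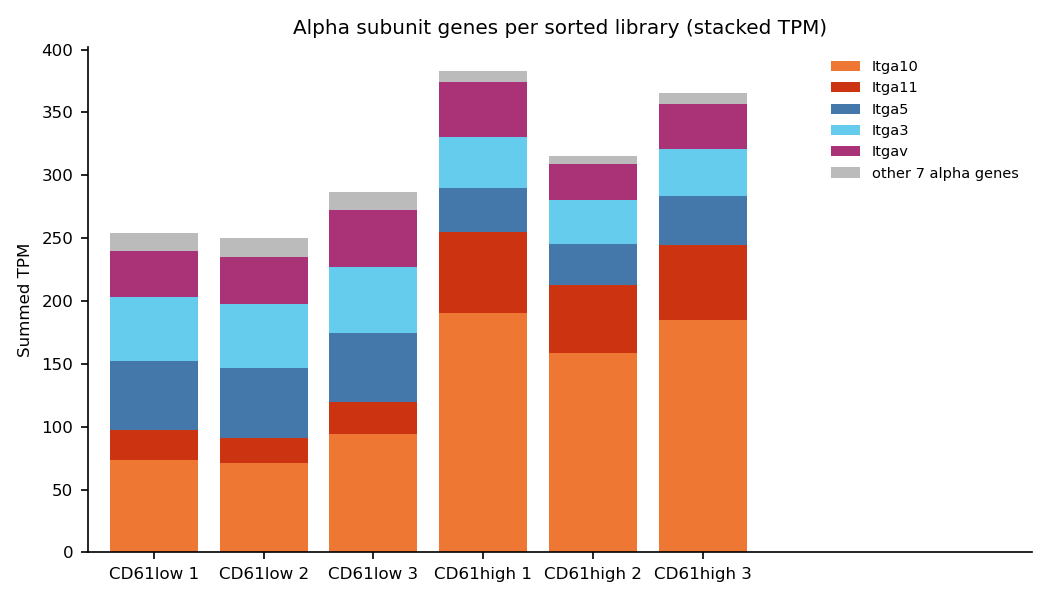
Summed TPM (y axis, from 0) of the alpha subunit genes that can pair with beta 1, stacked by gene, in each of the 6 sorted libraries (x axis). Itga10 and Itga11 take up 50.2% and 16.8% of the bar on average in CD61high libraries and 30.1% and 8.84% in CD61low libraries.

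Salmon's transcript estimates gave the share of each transcript in its gene in the sort. Itgb3-201 held 100% of the Itgb3 TPM in 5 libraries and 80.9% in CD61low library 1, where Itgb3-202 was given 0.364 TPM. Itgb1-201 and Itga11-201 each held over 99% in every library, and Itga1-201 held 86.7% to 100%. Itgav was spread more widely, with 61.6% to 76.5% on Itgav-201 and 11.8% to 24.7% on the short Itgav-206. Itgb5-202 held 72.9% to 94.6% of Itgb5, and Itga3-201 held 67.1% to 95.2% of Itga3, with the lowest share of both in CD61high library 2. Itga6, at under 4 TPM, was divided mainly among 4 transcripts, and several of the shares differed widely between libraries of one group. Itga6-205, of 443 bases and with no annotated coding sequence, held 56.7% to 63.1% in CD61high libraries. In CD61low libraries it held 0% to 40.2%. No test was made on transcripts.

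Of 10312 genes that averaged 5 CPM or more over the time course, those whose centred log2(CPM + 1) values lay closest to Itgb3 over the 8 time-course libraries were Slc2a3, Wscd2, Apln, Asrgl1 and Prickle2. Their root mean square difference from Itgb3 was 0.229, 0.288, 0.294, 0.300 and 0.306 log2 units. The 8 libraries fall into 4 days and this is a description only. Slc2a3, a glucose transporter gene, went from 4.21 CPM on day 1 to 7.76 on day 10 and 19.2 on day 14, and Apln, which encodes the peptide apelin, from 26.1 to 65.5 and 157. In the sort, on libraries not used for this choice, the 5 genes had a Log2FC of 2.23, 1.41, 1.39, 1.22 and 1.36 in CD61high cells. Each was called higher (the largest adjusted p was 2.4e-05 in edgeR), against 4.84% of all genes. By their choice the 5 genes also rose with time, with a Log2FC of 1.77 to 2.54 on day 14. The share called in the sort among other genes with such a rise was not determined. Among the integrin genes of this report with a mean of at least 5 CPM, Itgb1 lay closest to Itgb3, at 0.739 log2 units, and ranked 1004.

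Of the 17 remaining integrin subunit genes, 8 were tested in each experiment. In CD61high cells 2 were called higher, where 4.84% of all genes were. edgeR and DESeq2 called 0 lower, where 4.37% of all genes were called, and 2 were lower at an unadjusted p under 0.05. With library size alone 2 were called lower, where 7.995% of all genes were. Itga10 had a Log2FC of 1.45 (adjusted p = 1.9e-06 in edgeR). Itgal, the alpha subunit of a leukocyte integrin, had 1.31 on only 14 to 42 counts per library. Their median Log2FC was 0.12 (-0.18 with library size alone). On day 14 Itgal and Itga10 were again called higher, at 1.29 and 1.27, and Itgb7 lower at -1.54, against 7.51% and 5.9% of all genes. Itgb8, which pairs with alpha v, stood at 3.38 CPM on average on day 1, 5.14 on day 7, 13.7 on day 10 and 3.91 on day 14, so that it was highest on day 10. It did not separate the sorted groups, at 4.21 to 8.15 TMM-normalized CPM in CD61low and 6.45 to 7.06 in CD61high libraries.

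Ligands of these receptors were read from 3 lists. Of 20 genes of RGD proteins and further ligands of alpha v integrins, 16 were tested in the sort, with 7 called higher and 3 lower and a median Log2FC of 0.78 (3 and 3 with library size alone). Of all genes 4.84% were called higher and 4.37% lower. The largest increases were in Dmp1 (4.29), Spp1, which encodes osteopontin (1.79), Tnc, which encodes tenascin C (1.34), and Tgfb1, whose latent form is bound by alpha v integrins (1.29). The 3 decreases were in Ccn3 (-3.89), Fbn1, the fibrillin 1 gene (-2.70), and Edil3 (-2.53). On day 14 against day 1, 17 were tested, with 3 higher and 4 lower and a median of -0.04, against 7.51% and 5.9% of all genes. Dmp1 (4.83), Ibsp, which encodes bone sialoprotein (4.27), and Ccn1 (1.27) were higher, and Fbn1 (-3.63), Postn, the periostin gene (-2.99), Thbs2 (-2.32) and Ccn3 (-1.23) were lower. Dmp1 is also an osteocyte marker of the study.

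Of 7 genes of fibrillar collagens, 5 were called higher in CD61high cells and 1 lower, with a median Log2FC of 1.18 (3 higher and 1 lower with library size alone), against 4.84% and 4.37% of all genes. Col2a1 (1.83), Col1a2 (1.37), Col1a1 (1.34) and Col5a2 (1.18) led the increases, and Col3a1 was lower (-1.98). With time, limma and edgeR called 0 of the 7 higher on day 14 (1 had a positive Log2FC with an unadjusted p under 0.05 in limma), the median was -0.03, and Col3a1 was lower (-3.57), against 7.51% and 5.9% of all genes. Of 10 laminin genes tested, 1 was called higher in CD61high cells (Lamb3, 1.52) and 4 lower, among them Lama2 (-3.33), Lamb1 (-1.44) and Lama3 (-1.40), against the same 4.84% and 4.37%. On day 14, Lama5 was higher (2.80), and Lamb1 (-3.07), Lamb3 (-1.24) and Lama1 (-1.03) were lower, against 7.51% and 5.9% of all genes. Lamb3 therefore lay on opposite sides in the sort and the time course, as Itga11 did.

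Of 41 genes of proteins that bind or act on integrin tails, 37 were tested. In the sort 3 were called higher and 3 lower, with a median Log2FC of -0.06 (2 and 4 with library size alone, with a median of -0.36), where 4.84% and 4.37% of all genes were called. Rasgrp2, an exchange factor for Rap1 (2.17), Kank1, a talin-binding protein gene (1.43), and Tns1, the tensin 1 gene (1.01), were higher, and Cav1, which encodes caveolin 1 (-2.80), Apbb1ip, a link between Rap1 and talin (-2.26), and Ptk2b, a focal adhesion kinase relative (-1.12), were lower. On day 14 Rasgrp2 (3.23), Kank1 (2.52) and Tns1 (2.25) were again higher, and Cav1 (-2.05), Apbb1ip (-1.82), Tln2, the talin 2 gene (-1.73), and Flna, the filamin A gene (-1.25), were lower, where 7.51% and 5.9% of all genes were called.

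Integrin beta 3 is also a product of osteoclasts, megakaryocytes and endothelial cells, so the markers of those cells were read in the same libraries. Of 12 osteoclast and macrophage markers 3 reached 1 CPM in any library of the time course, and 9 did not, among them Ptprc, Acp5 and Csf1r. Their sum was 64.3 to 92.4 CPM, mostly Ctsk. In the sort it was 32.4 to 35.3 TMM-normalized CPM in CD61low and 26.5 to 33.4 in CD61high cells. Within it Cd68, at 12.2 to 15.3 and 7.12 to 8.57, and Mmp9, at 0.670 to 2.11 and 0.176 to 0.353, lay lower in CD61high cells without overlap. Over the days Cd68 stood at 1.59 to 1.73 CPM on day 1 and 1.68 to 1.69 on day 7. It was highest on day 10, at 4.54 to 4.73 CPM. On day 14 it was at 3.27 to 3.41 CPM, above day 1 as Itgb3 was. Between days 10 and 14 Cd68 thus fell, where Itgb3 rose most. Mmp9 and Ctsk were lower on day 14 than on day 1. Mmp9 measured 2.21 to 2.54 CPM on day 1 and 0.466 to 0.690 on day 14. Ctsk measured 87.4 to 87.5 CPM on day 1 and 60.0 to 62.4 on day 14. Of 9 megakaryocyte markers 3 reached 1 CPM in the time course, where they summed to 18.9 to 20.7 CPM on day 1 and 10.9 to 11.3 on day 14, and 2 reached 1 in the sort. There they summed to 12.7 to 16.7 TMM-normalized CPM in CD61low and 11.9 to 15.9 in CD61high cells, and Itga2b, whose product pairs with beta 3 in platelets, held 5.74 to 7.18 and 5.87 to 6.75. Of 8 endothelial markers Vwf alone reached 1, and it moved with Itgb3 in the sort, at 14.5 to 20.6 TMM-normalized CPM in CD61low and 72.3 to 91.2 in CD61high cells. Over the days Vwf stood at 0.690 to 1.12 CPM on day 1 and 4.65 to 6.30 on day 7, and it peaked on day 10, at 123 and 131. It fell to 17.9 and 19.0 CPM on day 14 but stayed above day 1, as Itgb3 did. The other 7 endothelial markers, Pecam1 and Cdh5 among them, stayed under 1 in every library, and their values rest on few counts. None of these passed the filter on low counts in the sort. Esam was at 0.049 to 0.375 TMM-normalized CPM in CD61low and 0.704 to 0.806 in CD61high cells, while Pecam1 (0.141 to 0.287 against 0 to 0.117) and Tek (0.141 to 0.478 against 0 to 0.115) lay the other way. The part of such cells in the Itgb3 values was not tested.

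Osteocyte lineage markers were present, with 11 of 13 reaching 1 in each experiment and Mepe and Fgf23 staying under 1. In the sort 10 of the 11 were called higher in CD61high cells (8 with library size alone), with a median Log2FC of 1.65, against 4.84% of all genes. They moved with Itgb3 apart from 1. That gene, Pdpn, measured 15.2 to 16.2 TMM-normalized CPM in CD61low and 9.53 to 12.1 in CD61high cells (Log2FC -0.48). On day 14 against day 1, 8 of the 11 were called higher, with a median of 3.36, against 7.51% of all genes. Sost, for example, went from 0 to between 17.3 and 18.0 CPM. limma and edgeR called 0 lower, where 5.9% of all genes were, with 2 lower at an unadjusted p under 0.05 in limma. These were Col1a1 (-0.47) and Pdpn (-0.53), and Pdpn went from 28.0 to 28.4 CPM on day 1 to 19.2 to 19.4 on day 14. Their summed level was 16929 to 20645 TMM-normalized CPM in CD61low and 48443 to 50954 in CD61high cells, and 35424 to 35473 CPM on day 1 and 25735 to 30943 on day 14. These sums are mostly Col1a1, which took 34687 to 34732 CPM on day 1 and 22633 to 27852 on day 14. Col1a1 and Dmp1 are also on the ligand lists above. The part of cell maturity in the integrin differences between the sorted groups was not tested.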

How the data were processed

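Libraries were grouped by their deposited labels. For the time course, the authors used STAR for mapping and HTSeq-count for counting, and the deposited values are CPM (the annotation release is not given in the sources used here). All CPM values (100%) were whole multiples of 1 read within 0.01, so edgeR on the recovered reads was an alternative. It called 1339 genes higher and 953 lower at day 14, where limma called 956 and 751. For the sort, the authors ran Salmon on the GRCm39 transcriptome and deposited estimated counts and TPM per transcript. Both were summed to genes with GENCODE M39 (115556 of 116747 transcripts matched), and the counts were rounded.

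The sort was tested with edgeR 4.0.16 (quasi-likelihood, TMM over all genes) for genes whose normalized count was 5 or more in each of the 6 libraries, and the time course with limma 3.58.1 on log2(CPM + 1) for genes above 1 CPM in at least 1 library, with Benjamini-Hochberg adjustment over all genes tested. Calls needed an adjusted p below 0.01 and a Log2FC beyond 1. The fits were tested on simulated data. The log2(CPM + 1) scale understates changes of genes at low CPM. Alternatives were DESeq2 1.42.0, other scalings, filters and pseudocounts, the replicate block and each library left out. The depth of 18815602 to 34311238 counts per library leaves Itga4 below testing.

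Genes named are the 10 integrin genes, up to 4 per list and direction called in the sort or at day 14, by Log2FC, and the 5 genes closest to Itgb3 (1 gene the rule names is not reported here). Itgb8 was named after its values were seen. Members and lists were chosen with earlier results of these data known. p-values measure the spread between libraries of one cell line. Coordinates are from GENCODE M39, and oligo sequences from the study's supplementary list were located in GRCm39. A promoter for Itgb3 was looked up in the RefSeq table given and has no entry there.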

Additional observations from a re-analysis of the deposited data

How the results depend on the processing

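The number of the 9 tested genes called, of the 10 chosen, was within 1.5 times its value in every comparison and under every alternative run, each library left out included. Of the 8 further integrin genes tested in the sort, 2 were called, against 4 with library size alone. Of all genes, 4.84% were called higher and 4.37% lower, against 2.62% and 7.995% with library size alone. Of the single Log2FC values of the 9 genes under these alternatives, 385 differed at all from the reported value, and 376 of these kept their direction and their side of the threshold. With library size alone, Itgb1 in the sort dropped to 0.81, under the fold threshold, and Itgav reversed to -0.074 (adjusted p = 0.62 in edgeR). Itga3 at day 7 slipped under the fold threshold with quantile normalization (-0.995), with TMM scaling of the CPM (-0.99) and without day 7 replicate 1 (-0.99). Between days 10 and 14, where neither gene was called, Itga1 reversed to -0.012 with quantile normalization and ranged from -0.17 to 0.18 with single libraries left out (negative without day 10 replicate 2 or day 14 replicate 1), and Itga11 ranged from -0.087 to 0.13 (negative without day 14 replicate 1). Both gates were collected from the same 3 groups of cells, but whether a replicate number marks one group is not given in the sources used here, and the libraries were not treated as paired. The correlation of deviations between libraries of one number ranged from -0.32 to 0.22 in the sort and from -0.03 to 0.06 in the time course. With the replicate block the counts called among the 9 were the same (5 in the sort, 4 at day 14), and no single call changed. Over all genes, day 14 against day 10 gave 377 calls in limma, against 671 with a pseudocount of 0.1 and 731 with edgeR on the recovered reads. With the gene lengths that the authors list, an alternative chosen after seeing the data, the Itgb3 share of the beta total was 0.408% on day 1, 0.361% on day 7, 0.568% on day 10 and 1.48% on day 14. Depth limits Itga4, and leaves Itga6 and Itgal on few counts.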
